A study of Rattus norvegicus with 4 samples.

Results

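The genes described here are 9 effector genes of lymphocytes: Ifng, Il17a, Gzmb, Gzmk, Prf1, Nkg7, Ccl5, Tbx21 and Il13. They were chosen by name, and 8 of the 9 have a row under that symbol among the 30560 genes of the count tables; Gzmb is not analysed here. Each gene's UMIs, that is, its distinct RNA molecules, were summed per library in 2 sets of cells. The first set comprised cells with at least 2 UMIs of Cd3d, Cd3e and Cd3g together, the genes of the CD3 chains that carry the T cell receptor signal, and is called Cd3 cells below. The second comprised cells with at least 3 UMIs of Nkg7 and none of the Cd3 genes, called Nkg7-high cells. The libraries were droplet single-cell RNA libraries of wild-type (WT) rats, 2 of subcutaneous fascia and 2 of skin; the labels used here name no further allele or treatment and no age. The series title places the fascia at the abdominal midline. Tissues were digested with enzymes, red blood cells were lysed and dead cells removed, so the cells counted are those that survived this handling. Whether the libraries of a tissue came from different animals is not in the labels, so every p-value below measures the spread between libraries, which may be technical.

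Effector lymphocytes act through secreted cytokines and through cytotoxic granules. Interferon gamma, encoded by Ifng, is the signature cytokine of type 1 lymphocytes and is driven by the transcription factor T-bet, encoded by Tbx21. Interleukin 17A, encoded by Il17a, marks type 17 cells, which in rodent skin include gamma delta T cells, and interleukin 13, encoded by Il13, marks type 2 cells. Perforin (Prf1) opens pores in a target cell, granzymes (Gzmb, Gzmk) are serine proteases of the same granules, Nkg7 is a granule membrane protein needed for efficient degranulation in mice, and Ccl5 is a chemokine that CD8 T cells and natural killer cells release.

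Promoter sequences are shown for Gzmk and Nkg7, which were found in the same cells, and for Il17a, which was found in other cells. Each runs from 250 bases before to 50 bases after the RefSeq start in the rat build GRCr8, 5′ to 3′ on the gene's own strand. Capitals mark the letters TCACAC (a core of T-box sites), AGGTCA (a core of ROR sites) and TGTGGT (a core of Runx sites) on either strand; no marked stretch overlaps another. The Gzmk sequence is chr2:46581966-46582265 (minus strand), the Nkg7 sequence chr1:102981247-102981546 (plus strand) and the Il17a sequence chr9:30640594-30640893 (plus strand).
Gzmk: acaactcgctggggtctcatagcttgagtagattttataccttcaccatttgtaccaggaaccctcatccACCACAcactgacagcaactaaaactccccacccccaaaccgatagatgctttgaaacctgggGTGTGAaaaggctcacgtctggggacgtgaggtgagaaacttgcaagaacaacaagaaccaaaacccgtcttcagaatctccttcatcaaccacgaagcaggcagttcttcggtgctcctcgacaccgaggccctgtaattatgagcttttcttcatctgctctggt
Nkg7: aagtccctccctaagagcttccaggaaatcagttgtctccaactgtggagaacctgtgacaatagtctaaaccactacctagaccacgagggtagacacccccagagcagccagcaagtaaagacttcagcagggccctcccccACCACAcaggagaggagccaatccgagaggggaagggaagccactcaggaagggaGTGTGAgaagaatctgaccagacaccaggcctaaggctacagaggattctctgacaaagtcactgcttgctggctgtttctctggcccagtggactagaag
Il17a: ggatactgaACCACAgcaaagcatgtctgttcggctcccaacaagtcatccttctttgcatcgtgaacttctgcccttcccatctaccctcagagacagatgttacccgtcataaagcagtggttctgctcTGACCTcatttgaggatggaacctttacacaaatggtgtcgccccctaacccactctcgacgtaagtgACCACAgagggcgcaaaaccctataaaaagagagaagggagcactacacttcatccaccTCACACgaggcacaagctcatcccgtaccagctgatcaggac
The T-box core stood once in each of these 3 windows, and 13.7% of the 33469 RefSeq rat promoters of that length hold it. The ROR core stood once in the Il17a window and not in the Gzmk or Nkg7 window, and 16.2% of all promoters hold it. The Runx core stood 2 times in the Il17a window and once in each of the other 2, against 17.3% of all promoters with at least 1. Windows were given for 7 of the 9 genes, and the Tbx21, Ifng and Prf1 windows held neither the T-box nor the ROR core. A match of letters is a description of the sequence, not a binding site.

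After filtering, 6602 and 6820 cells were kept in fascia and 7015 and 14279 in skin, with median depths of 12680 and 10330 UMIs in fascia and 8859 and 2457 in skin. Library pairs shared between 17 and 45 barcodes, and 0 of these fell in the 2 sets of lymphocytes. Cd3 cells numbered 216 and 497 in fascia (3.27% and 7.29% of kept cells) and 65 and 156 in skin (0.927% and 1.09%). Their median depth was 8823 and 7557 UMIs in fascia and 5440 and 3169 in skin. All 11 lymphocyte markers with a row were detected in the Cd3 cells of every library. A Cd8a or Cd8b UMI, a sign of the CD8 co-receptor, was found in 46.8% and 46.7% of Cd3 cells in fascia and in 6.15% and 14.7% in skin. A Cd8b UMI was found in 37.5% and 36.8% of them in fascia and in 1.54% and 10.9% in skin. Markers of other cells were also counted in this set. All 10 keratinocyte markers with a row summed to 19.1 and 34.9 CPM, the UMIs of a gene scaled to a common total per library and set of cells, in fascia and 6249 and 11560 CPM in skin, with Krt5, Krt1, Krt15, Krt17 and Dsp at 0 in fascia replicate 1. The 10 fibroblast markers summed to 1033 and 1954 CPM in fascia and 24143 and 1912 CPM in skin, and the 12 macrophage markers to 1564 and 591 CPM in fascia and 4.71 and 45.7 CPM in skin. Of the 8 mast cell markers with a row, Kit was the one detected in the skin libraries, and Cpa3, Tpsb2, Tpsab1 and Ms4a2 were at 0 in all libraries. Cd3 cells were also left out where they held at least 3 UMIs of Krt5, Krt14, Col1a1, Col3a1, Lyz2, C1qa, C1qb, Pecam1, Rgs5 and Acta2 together. The log2 change of fascia over skin described below was then 1.84 for Gzmk, 1.67 for Tbx21 and -8.18 for Il17a. None of these 3 genes then had an unadjusted p under 0.05 in edgeR's test.

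The comparison of fascia with skin in Cd3 cells asked which effector genes differ between the tissues relative to all UMIs of these cells. Those UMIs include the RNA of other cells described above. Gzmk, Nkg7, Tbx21 and Ccl5 had higher levels in both fascia libraries than in either skin library, and Il17a had lower ones, but no effector gene passed the test across all genes. By the quasi-likelihood test of edgeR, with p-values adjusted by Benjamini and Hochberg's method, 1696 of 9961 genes (17%) passed an adjusted p of 0.05, of which 661 were higher and 1035 lower in fascia. Of the effector genes 7 were tested (Il13 was below the low-count filter) and 0 passed, while 4 of the 7 had an unadjusted p under 0.05: Gzmk, Tbx21, Il17a and Prf1. DESeq2 called Gzmk and Il17a, 2 of 7, against 15% of all genes. Without fascia replicate 1 the total was 727 genes, and without fascia replicate 2 it was 706. An exact permutation test of 2 against 2 libraries cannot give a two-sided p under 0.33, so no test of a single gene on its own was run. A lack of overlap between the libraries of the tissues is therefore only a description, here and below. The share of all genes without such overlap was not counted.

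Among the granule genes, Gzmk had 509 and 1435 UMIs in fascia and 5 and 65 UMIs in skin, which is 232 and 343 CPM in fascia and 11.8 and 95.9 CPM in skin. Both fascia libraries were above both skin libraries. The log2 change was 2.23 with a standard error (SE) of 0.73 and an adjusted p of 0.0983 in edgeR's test. The change was 1.5 without skin replicate 1 and 4.57 without skin replicate 2. Each of these fits kept 1 skin library, which was assumed to vary like fascia. Nkg7 had 295 and 451 CPM in fascia and 129 and 271 CPM in skin. The libraries did not overlap, but fascia replicate 1 and skin replicate 2 lay close together, and the log2 change was 0.80 (SE 0.38, adjusted p 0.184 in edgeR's test). It was 0.38 without skin replicate 1 (adjusted p 0.39), 0.52 without fascia replicate 2 (adjusted p 0.628) and 1.49 without skin replicate 2, where it passed (adjusted p 0.00405).

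Prf1 had the other order. It measured 42.8 and 50.4 CPM in fascia and 169 and 50.2 CPM in skin, so skin replicate 1 stood apart and the other 3 libraries lay together. The log2 change was -1.26 (SE 0.52, adjusted p 0.144 in edgeR's test). It was -0.18 without skin replicate 1 and -1.89 without skin replicate 2, fits that each kept 1 skin library. Without cells that carried markers of other types it was -1.5 (adjusted p 0.0233 in edgeR's test). It was 0.77 when the cells of cluster 31, described below, were left out with those of other clusters (adjusted p 0.366 in the same test).

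Tbx21 had 128 and 148 CPM in fascia and 4.71 and 62.0 CPM in skin, and the value in skin replicate 1 rested on 2 UMIs. The tissues did not overlap, and the log2 change was 1.81 (SE 0.70, adjusted p 0.137 in edgeR's test). The change of Tbx21 was 1.07 without skin replicate 1 and 4.82 without skin replicate 2, fits that each kept 1 skin library. Ccl5 had 5978 and 9129 CPM in fascia and 169 and 3669 CPM in skin. In fold, the skin libraries differed more from each other than skin replicate 2 did from fascia, and the log2 change of 1.89 had an SE of 1.51 (adjusted p 0.468 in edgeR's test). It was 0.96 without skin replicate 1 and 5.44 without skin replicate 2. Ifng was rare: 48 and 49 UMIs in fascia, in 19 and 21 cells, and 0 and 14 UMIs in skin, in 0 and 5 cells. In CPM this was 21.9 and 11.7 in fascia and 0 and 20.7 in skin, with 3 counts in skin replicate 1 worth 7.06 CPM. The tissues overlapped, and the log2 change was 0.35 (SE 0.87, adjusted p 0.819 in edgeR's test). Without skin replicate 1 it was -0.43, and without skin replicate 2, which leaves skin at 0 UMIs, the change favoured fascia.

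Il17a had the largest fitted change of the 7 tested genes. It had 0 and 22 UMIs in fascia and 22 and 749 UMIs in skin, in 0 and 10 fascia cells and 7 and 28 skin cells. This is 0 and 5.25 CPM in fascia and 51.8 and 1105 CPM in skin, where the largest single cell of skin replicate 2 held 155 UMIs. The tissues did not overlap, the libraries of each tissue lay far apart, and the log2 change of -7.59 had an SE of 2.21 (adjusted p 0.117 in edgeR's test). It was -4.06 without skin replicate 2 and -12.34 without fascia replicate 2, fits that each kept 1 library of a tissue. The second leaves fascia at 0 UMIs, so that this size is no bound. Il13 had 2 UMIs, both in 1 cell of skin replicate 1, and 0 UMIs in the Cd3 cells of both fascia libraries, where 3 counts would be 1.37 and 0.716 CPM.

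**Figure D1:**
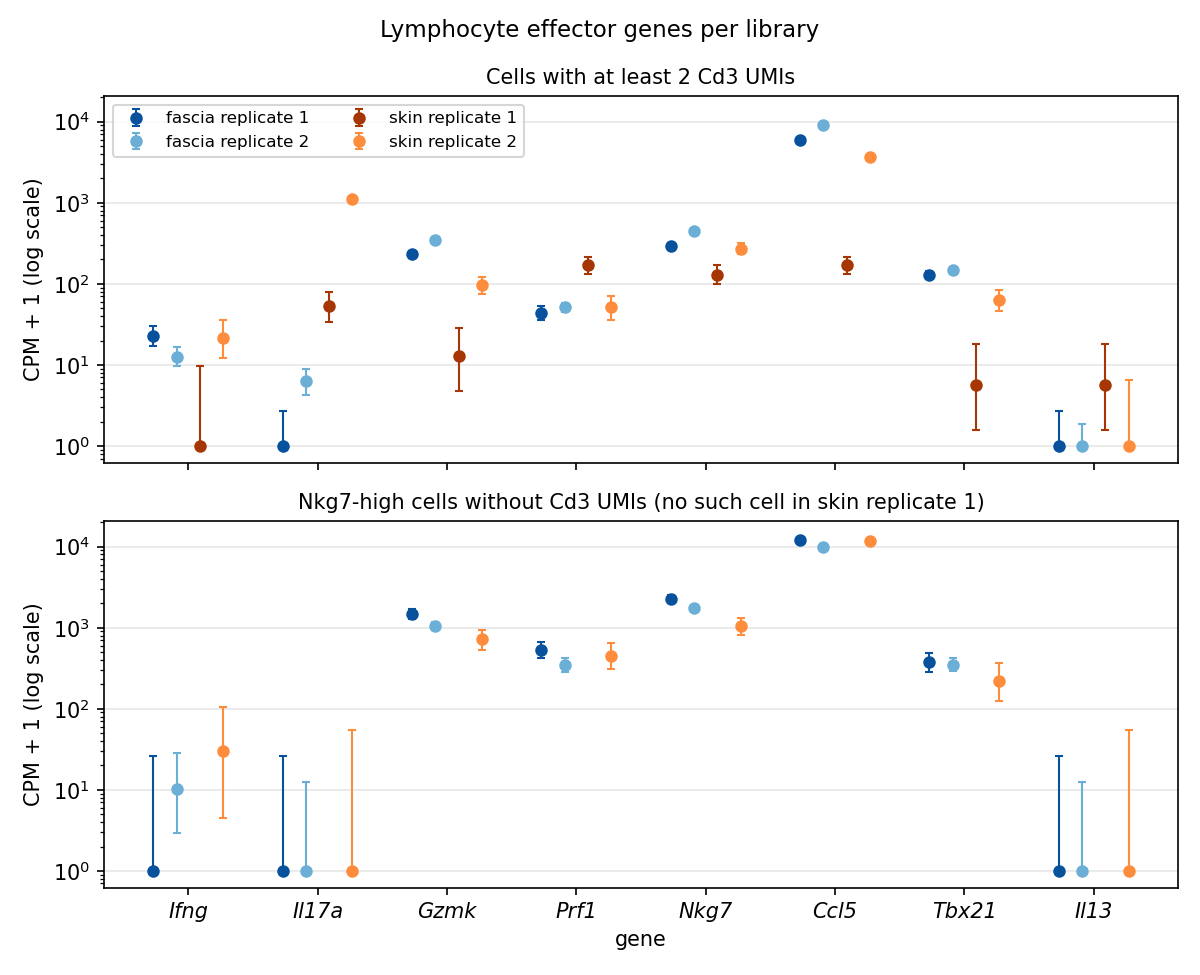
CPM plus 1 of each effector gene on a log axis, for the Cd3 cells (upper panel) and the Nkg7-high cells (lower panel), with 1 point per library (fascia in blue, skin in orange) and exact 95% Poisson intervals that cover counting error only. Gzmk, Tbx21 and Ccl5 lie higher in both fascia libraries than in the skin libraries among Cd3 cells, and Il17a lies lower.

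Shares of cells with a UMI were also read at a common depth. Cells were thinned to 1000 UMIs each, which left out 5 Cd3 cells of skin replicate 2 and none of the other libraries. A Gzmk UMI was then found in 16.2% and 22.5% of Cd3 cells in fascia and in 1.54% and 5.30% in skin, against 30.1% and 35.2% in fascia and 3.08% and 8.97% in skin before thinning. A Ccl5 UMI was found in 31% and 39.8% of thinned cells in fascia and 6.15% and 11.9% in skin. For Il17a the shares were 0% and 0.805% in fascia and 4.62% and 13.2% in skin. For Prf1 they were 2.31% and 5.03% in fascia and 15.4% and 7.95% in skin, with both skin libraries higher. Fibroblast-like cells, which should lack these genes, give the background of such shares, whose source was not tested. At the same thinned depth a Ccl5 UMI was found in 0.0725% and 1.63% of them in fascia and in 0 of 324 and 0 of 414 in skin. Il17a was found in 0.242% of them in skin replicate 2 and in none of the other 3 libraries, and Gzmk and Prf1 in none of the 4. Their median depths before thinning were 16374.5 and 16179 UMIs in fascia and 12496 and 6047 in skin, deeper than the Cd3 cells of the same libraries.

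The Cd3 cells were then split by Cd8a and Cd8b UMIs, a split added after the data were seen. With a Cd8 UMI there were 101 and 232 cells in fascia and 4 and 23 in skin, too few in skin replicate 1 for a test. In these cells the skin libraries lay apart: the levels in skin replicate 2 lay near those of fascia and the levels in the 4 cells of skin replicate 1 were lower. Gzmk had 535 and 712 CPM in fascia and 46.9 and 493 CPM in skin, Nkg7 had 695 and 933 CPM in fascia and 46.9 and 885 CPM in skin, and Tbx21 had 183 and 242 CPM in fascia and 0 and 246 CPM in skin. In skin replicate 1 the Gzmk and Nkg7 levels rested on 1 UMI each. Ccl5 had 14233 and 19012 CPM in fascia and 2908 and 18923 CPM in skin, where replicate 1 had 62 UMIs. Gzmbl2, a granzyme B-like gene, was above fascia in both skin libraries, with 165 and 201 CPM in fascia and 1407 and 2548 CPM in skin, where all 30 UMIs of replicate 1 came from 1 cell.

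Without a Cd8 UMI there were 115 and 265 cells in fascia and 61 and 133 in skin, some of which may carry undetected Cd8. In this subset 3 of the 5 effector genes tested passed edgeR's test, against 17.5% of 8642 genes. Nkg7 was lower in fascia, with 5.50 and 14.1 CPM in fascia and 134 and 126 CPM in skin (log2 change -3.69, adjusted p 0.00193). Prf1 was lower too, with 11.8 and 13.2 CPM in fascia and 178 and 43.8 CPM in skin (-3.15, adjusted p 0.0263). Tbx21 was higher, with 87.2 and 62.4 CPM in fascia and 4.96 and 18.3 CPM in skin (2.53, adjusted p 0.0148). None of the 3 overlapped between tissues. The levels of Nkg7 and Prf1 here depend on the split. A Cd8 UMI was in 267 of 280 Cd3 cells with Nkg7 in fascia and 16 of 68 in skin. For Prf1 it was in 130 of 158 in fascia and 6 of 56 in skin, so the split removed most such cells of fascia. In skin, 38 of the 68 Nkg7 cells and 43 of the 56 Prf1 cells were in cluster 31, described below. Il17a had 0 and 8.66 CPM in fascia and 52.0 and 1365 CPM in skin and did not pass (adjusted p 0.157). The difference between the subsets was not tested.

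**Figure D2:**
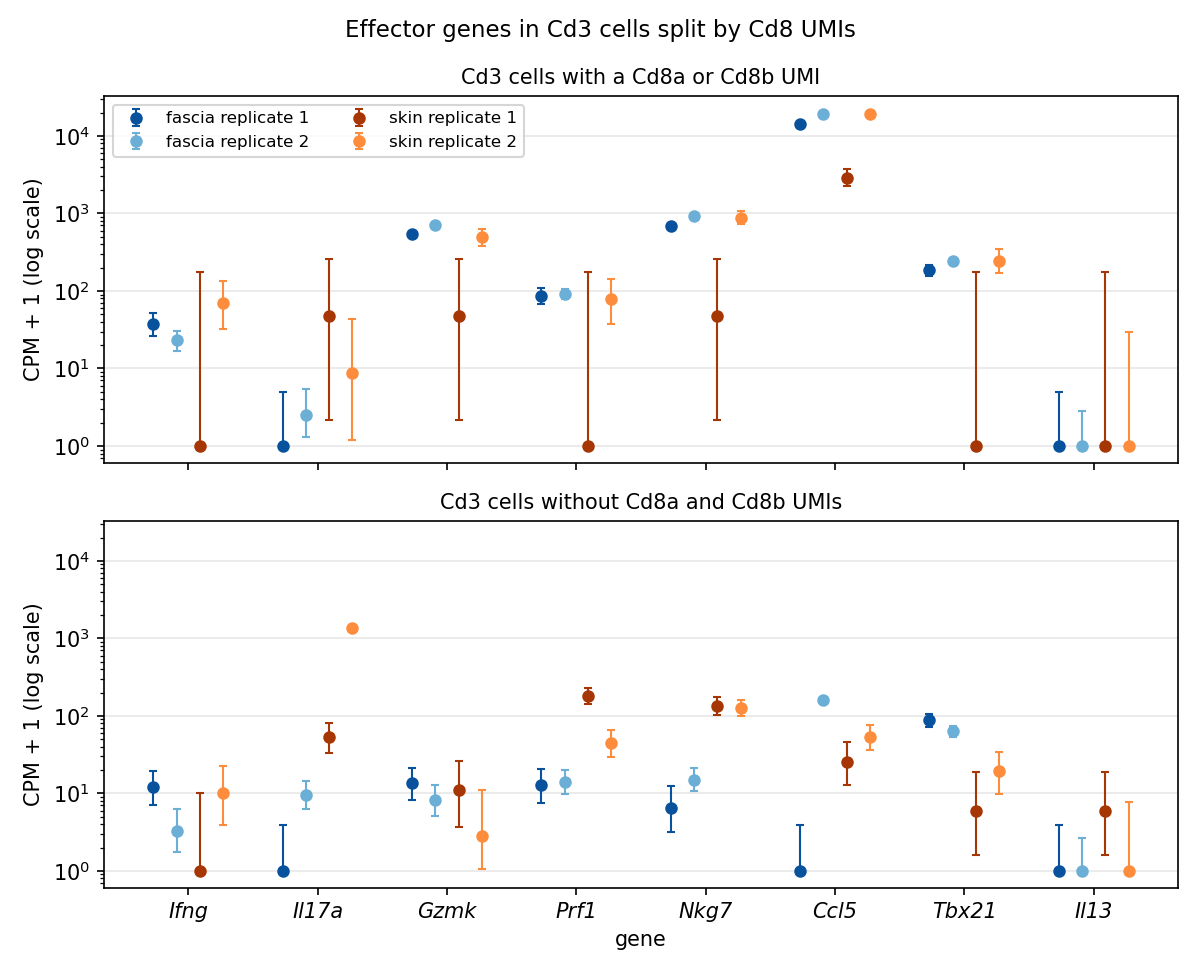
CPM plus 1 of each effector gene on a log axis in Cd3 cells with (upper panel) and without (lower panel) a Cd8a or Cd8b UMI, per library, with exact 95% Poisson intervals. Nkg7 and Prf1 lie lower in both fascia libraries than in skin among cells without Cd8 UMIs, whereas among cells with them skin replicate 2 lies near fascia and the 4 cells of skin replicate 1 lie lower for Gzmk, Nkg7, Ccl5 and Tbx21.

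Most Cd3 cells fell in 3 of the 38 clusters of all cells. The others numbered 17 of 216 and 29 of 497 in fascia and 4 of 65 and 67 of 156 in skin, so skin replicate 2 had the most outside the 3 clusters. Since the clusters were built from these same genes, their levels by cluster are a description. Cluster 18, led by Ccl5, Gzmk, Gzmm, Nkg7 and Cd8a, held 123 and 316 Cd3 cells in fascia and 2 and 17 in skin. Cluster 14, led by Il2ra, Scart1, Il23r and Il1rl1, held 76 and 152 in fascia and 23 and 47 in skin. Cluster 31, led by the mast cell genes Mcpt1l1, Cpa3 and Cma1 together with Gzmf and Trat1, held 0 and 0 Cd3 cells in fascia and 36 and 25 in skin. Cpa3 and Cma1 had 0 UMIs in the Cd3 cells of both skin libraries, so the UMIs of these 2 genes lay in other cells of the cluster. Ccl5 had 11249 and 15213 CPM in cluster 18 in fascia and 6454 and 25469 CPM in skin. Il17a lay mostly in cluster 14, with 0 and 18.1 CPM in fascia and 176 and 3465 CPM in skin, where Nkg7 had 0 UMIs in every library. In skin replicate 2, 98 of the 749 Il17a UMIs lay in 6 Cd3 cells outside the 3 clusters. Prf1 reached 348 and 218 CPM and Nkg7 265 and 569 CPM in the skin Cd3 cells of cluster 31, where Gzmk and Tbx21 had 0 UMIs.

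**Figure D3:**
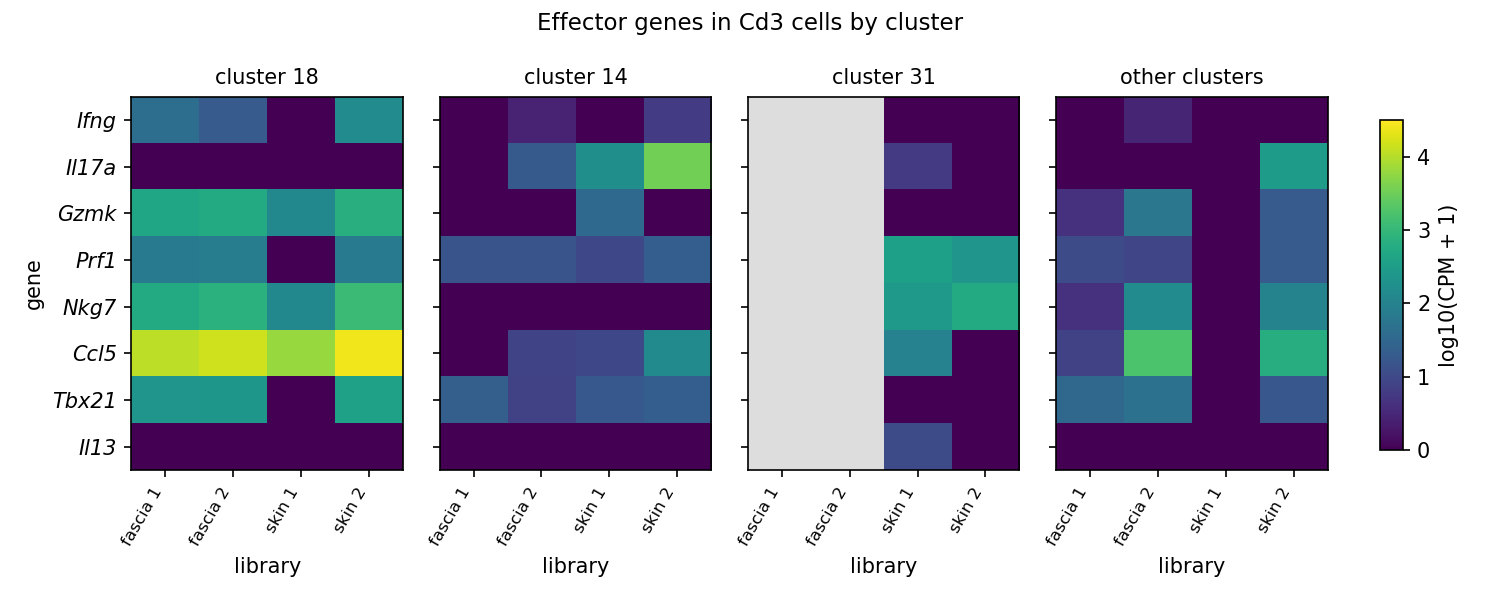
Heat map of log10(CPM + 1) of each effector gene (rows) in each library (columns, fascia left of skin) for the Cd3 cells of clusters 18, 14 and 31 and of all other clusters; grey marks libraries with no such cell. Il17a is bright in cluster 14 of skin, Ccl5 in cluster 18 of all libraries, and Prf1 and Nkg7 in cluster 31 of skin.

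Detection in the same cell followed these lines. Of the Cd3 cells with a Gzmk UMI (240 in fascia and 16 in skin), 233 in fascia and 14 in skin also had a Cd8 UMI, and 229 in fascia and 14 in skin a Nkg7 UMI. Of the cells with an Ifng UMI (40 in fascia and 5 in skin), 33 in fascia and 3 in skin had a Tbx21 UMI. Of the cells with an Il17a UMI (10 in fascia and 35 in skin), 9 in fascia and 20 in skin had a UMI of Il23r, a subunit of the receptor for interleukin 23. In the same cells Il17f, the nearest relative of Il17a, was found in 0 in fascia and 18 in skin, and Gzmk and Ifng in 0 of either tissue. Of the Prf1 cells (158 in fascia and 56 in skin), 103 in fascia and 2 in skin had a Gzmk UMI, and 0 in fascia and 39 in skin a UMI of Gzmf, another granzyme. Depth differs between the tissues, so the absence of a second gene is less certain in skin.

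Nkg7-high cells without Cd3 UMIs numbered 12 and 37 in fascia and 0 and 8 in skin. The 0 of 7015 cells in skin replicate 1 allow a share of up to 0.0428%, against 0.182% and 0.543% in fascia and 0.056% in skin replicate 2. With no cell in 1 skin library the tissues were not tested, nor was the difference between the 2 sets of cells. Of the 17 natural killer receptor genes of the list with a row, 15 and 14 had a UMI in these cells in fascia and 12 in skin replicate 2. Klrd1, which encodes CD94, had 739 and 757 CPM in fascia and 511 CPM in skin replicate 2. A Cd8a or Cd8b UMI was found in 83.3% and 51.4% of the Nkg7-high cells in fascia and in 87.5% in skin replicate 2. A Cd8b UMI was found in 0% and 0% in fascia and in 12.5% in skin replicate 2. A Cd8 UMI was thus not limited to the Cd3 cells. Markers of other cells were also counted here: the 10 keratinocyte markers summed to 6.84 and 6.2 CPM in fascia, from 1 and 2 of the markers, and to 24580 CPM in skin replicate 2, from all 10, and 2 haemoglobin genes summed to 41.1 and 26593 CPM in fascia and 0 CPM in skin replicate 2. Their part in the levels below was not tested. Nkg7 itself defined the set. Gzmk had 1472 and 1048 CPM in fascia and 715 CPM in skin replicate 2. In the Cd3 cells of the same libraries it had 232 and 343 CPM in fascia and 95.9 CPM in skin. Cd3 cells with a Cd8 UMI had 535 and 712 CPM of Gzmk in fascia and 493 CPM in skin replicate 2. Most Cd3 cells with Gzmk also held Nkg7, so a set picked by Nkg7 favours Gzmk, and this order is only a description. Prf1 had 534 and 347 CPM in fascia and 452 CPM in skin replicate 2, and Tbx21 had 376 and 350 CPM in fascia and 219 CPM in skin replicate 2. Their Poisson intervals overlapped between skin replicate 2 and at least 1 fascia library. Ccl5 had 12169 and 9850 CPM in fascia and 11757 CPM in skin replicate 2. Ifng had 0 and 3 UMIs in fascia and 2 in skin replicate 2, and Il17a and Il13 had 0 UMIs in all 3 libraries.

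Over all kept cells, where fewer cells of a type and less RNA per cell cannot be told apart, the effector genes other than Il17a and Il13 had higher levels in both fascia libraries. Nkg7 had 11.1 and 32.6 CPM in fascia and 0.724 and 3.97 CPM in skin (log2 change 2.99, SE 0.95, adjusted p 0.0633 in edgeR's test). Gzmk had 8.27 and 23.9 CPM in fascia and 0.0749 and 2.02 CPM in skin (3.72, SE 1.41, adjusted p 0.0972). Tbx21 was nearest to the threshold, with 4.5 and 12.7 CPM in fascia and 1.63 and 2.13 CPM in skin (1.94, SE 0.56, adjusted p 0.0502). Prf1, whose fitted change in Cd3 cells was negative, had a positive one here, with 2.01 and 4.38 CPM in fascia and 1.01 and 1.06 CPM in skin (1.37, SE 0.50, adjusted p 0.0859). Il17a had 0 and 0.477 CPM in fascia and 1.56 and 12.3 CPM in skin (-5.11, SE 1.83, adjusted p 0.0846). Of the 7 tested, 0 passed edgeR's test and 5 had an unadjusted p under 0.05, against 6736 of 17805 genes called (37.8%); DESeq2 called 4 of them, against 45.4% of all genes. Without skin replicate 1 the total was 2858 genes, and without skin replicate 2, fascia replicate 1 or fascia replicate 2 it was 3654, 3547 and 4474.

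Most UMIs of the granule genes lay in the 2 sets of lymphocytes. For Nkg7 this follows in part from the rule, since Nkg7 UMIs define the second set. Cd3 cells held 69.7% and 77.4% of Gzmk UMIs in fascia and 83.3% and 42.2% in skin, and Nkg7-high cells held 29.5% and 18.2% in fascia and 0% and 31.8% in skin. Tbx21 lay partly elsewhere. Keratinocyte-like cells held 0% of its UMIs in both fascia libraries and 66.4% and 23.9% in skin, at 3.97 and 2.94 CPM, and Cd3 cells held 70.5% and 62.7% in fascia and 1.53% and 25.8% in skin. Of the Il17a UMIs of skin replicate 1, 76.0% lay in cells of clusters 14, 18 and 31 that did not meet the Cd3 minimum. These were 95 UMIs in 5 cells, and 1 cell held 83 of the 125 Il17a UMIs of that library.

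**Figure D4:**
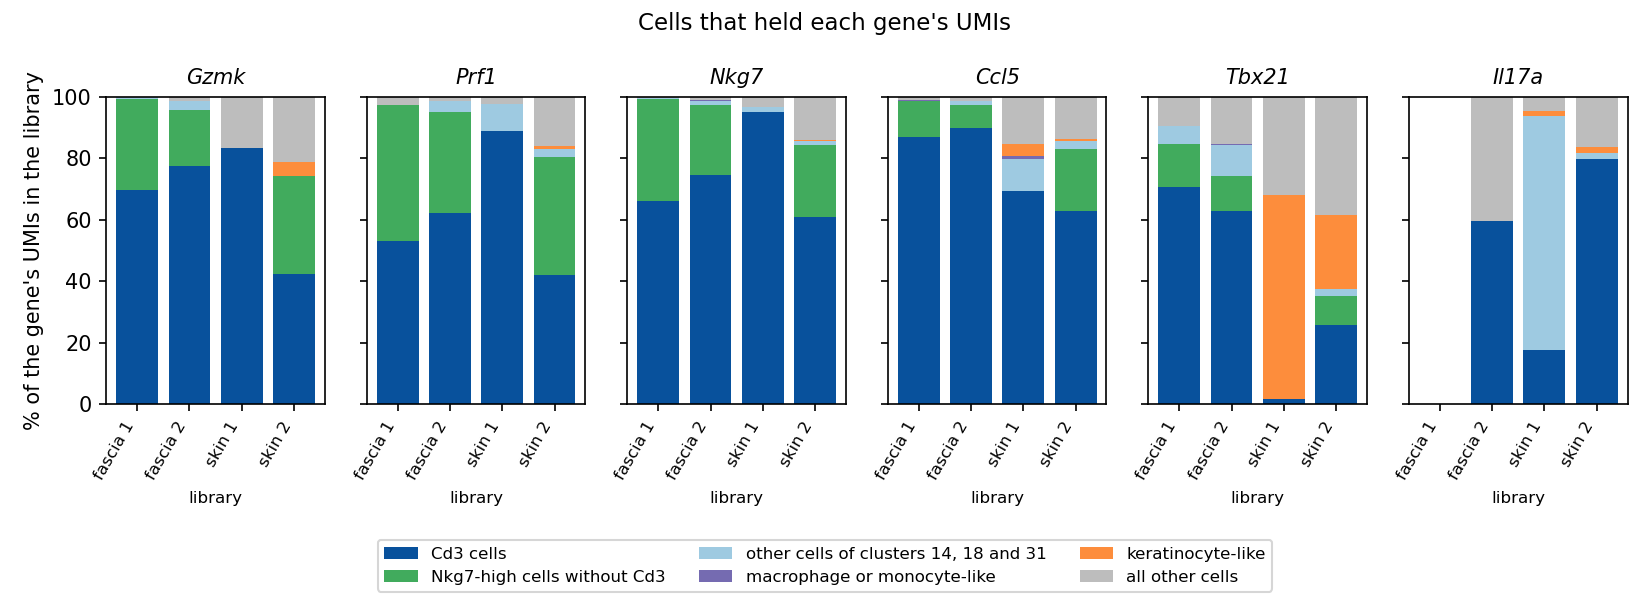
Percent of each gene's UMIs in a library (stacked bars, fascia left of skin) by the cells that held them. Gzmk, Prf1, Nkg7 and Ccl5 UMIs lie mostly in Cd3 and Nkg7-high cells, for Nkg7 in part because it defines the second set. Tbx21 UMIs of skin lie largely in keratinocyte-like and other cells. No bar is drawn for Il17a in fascia replicate 1, which had 0 UMIs.

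The other genes of the same programmes, from lists chosen with earlier results of these data known, are given for the Cd3 cells. The part of RNA from other cells, whose markers differed between the tissues in this set, was not tested for these genes. Over all tested genes the median log2 change was 0.02 and 17% were called. Of 16 tested genes of granules and killing, 1 was higher, 4 were lower and 11 did not pass, with a median log2 change of 0.30; the called share was 31.2%, against 17% of all genes. The gene that was higher was Serpinb9, an inhibitor of granzyme B, with 131 and 150 CPM in fascia and 16.5 and 48.7 CPM in skin (1.93, adjusted p 0.0176 in edgeR's test). Gzmf was lower, with 1 UMI in fascia and 312 in skin, a ratio of skin over fascia of 1806 (95% counting interval 322 to 71551), and Crtam, an adhesion receptor of activated lymphocytes, had 4.56 and 7.16 CPM in fascia and 177 and 72.3 CPM in skin (-4.39, adjusted p 0.00242). Gzmbl2, outside the list and shown because Gzmb has no row, was lower, with 69.2 and 97.9 CPM in fascia and 193 and 614 CPM in skin (-2.36, adjusted p 0.0339); reads of near-identical granzyme copies may be split between them.

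Of 18 tested type 1 genes, 6 were higher, 2 lower and 10 did not pass, with a median log2 change of 1.00 and a called share of 44.4%, against 17% of all genes. Cxcr3, a chemokine receptor of type 1 T cells, had 87.0 and 72.4 CPM in fascia and 14.1 and 4.43 CPM in skin (3.16, adjusted p 0.00605 in edgeR's test). Il12rb1, a subunit of the interleukin 12 receptor, was also higher (2.48, adjusted p 0.0411), and the chemokine gene Xcl1 (-3.08, adjusted p 0.0396) and the transcription factor gene Runx3 (-1.31, adjusted p 0.0178) were lower.

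Of 13 tested type 17 genes, 0 were higher, 5 lower and 8 did not pass, with a median log2 change of -0.64 and a called share of 38.5%, against 17% of all genes. Il17f had 0 and 0.716 CPM in fascia and 61.2 and 128 CPM in skin, where fascia held 3 UMIs in all and the ratio of skin over fascia was 218 (95% counting interval 72.7 to 1073). Il22, a cytokine that acts on epithelium, had 0.456 and 0.955 CPM in fascia and 42.4 and 13.3 CPM in skin (-5.05, adjusted p 0.00786 in edgeR's test). Ahr, the aryl hydrocarbon receptor, had 27.3 and 24.8 CPM in fascia and 160 and 149 CPM in skin (-2.65, adjusted p 0.00104). The receptor gene Il23r had 177 and 223 CPM in fascia and 70.6 and 121 CPM in skin and did not pass (0.95, adjusted p 0.0669).

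Of 7 tested type 2 genes, 0 were higher and 3 lower: Areg, Il10 and Icos, the last a co-stimulatory receptor with 92.9 and 155 CPM in fascia and 1003 and 528 CPM in skin (-2.71, adjusted p 0.00573 in edgeR's test). The median was 0.02 and the called share 42.9%, against 17% of all genes here and for the following lists. Of 13 tested natural killer receptor genes, 3 were higher and 3 lower, with a median of 0.59 and a called share of 46.2%; Cd226, an activating receptor, was higher (1.96, adjusted p 0.0111), and Klrb1a (-1.98, adjusted p 0.0131) and Kit, with 1 UMI in each fascia library, were lower. Of 13 tested genes of residency and activation, 1 was higher, Pdcd1, and 4 were lower, with a median of -0.83 and a called share of 38.5%; Nr4a2, a gene induced by receptor signalling, had 41.9 and 36.3 CPM in fascia and 214 and 319 CPM in skin (-2.86, adjusted p 0.00141). Of 10 tested genes of naive and recirculating cells, 2 were higher and 0 lower, with a median of 0.58 and a called share of 20%, near that of all genes; the transcription factor gene Lef1 was higher (1.38, adjusted p 0.0372). Of 11 tested T cell subset genes, Cd5 and Cd27 were higher and Tnfrsf4 lower, with a median of -0.11 and a called share of 27.3%.

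The receptors of the effector cytokines were read in the cells around the lymphocytes, as levels with no test. Ifngr1, a chain of the interferon gamma receptor, had 342 and 348 CPM in fibroblast-like cells of fascia and 138 and 341 CPM in those of skin. Il17rc, a chain of the interleukin 17 receptor, had 28.9 and 18 CPM in fibroblast-like cells of fascia and 20.7 and 18.4 CPM in those of skin, and 31.1 and 39.6 CPM in keratinocyte-like cells of skin. Il13ra2, a receptor for interleukin 13, had 63.3 and 61.0 CPM in mural-like cells of fascia, the cells that wrap small vessels. It had 2.07 and 0.697 CPM in those of skin, where the tissues did not overlap. Mural-like cells lay mostly in clusters 4 and 11 in fascia and in cluster 26 in skin, so unlike cells may be compared. Il13ra2 is among the leading genes of cluster 4. Among Cd3 cells, 2 of the 7 tested receptor genes were higher, 1 was lower and 4 did not pass, with a median log2 change of 0.36 and a called share of 42.9%, against 17% of all genes.

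Genes with the most similar pattern were ranked by Pearson's r of log2(CPM + 1) over 33 sets of cells by library, which share libraries and depth, among 13714 genes. The sets include the Nkg7-high cells of fascia replicate 2, which were picked by Nkg7 itself. Nkg7, Gzmk and Prf1 were highest in that set, so their ranks rest in part on the rule. The nearest to Il17a were Il17f (r = 0.93), Kb23 (0.835) and Il22 (0.827). The nearest to Gzmk were Baiap3 (0.984), Klrc1 (0.983) and Olr300 (0.973), and to Nkg7 they were Klrc1 (0.971), Sh2d2a (0.968) and Klrd1 (0.962). Prf1 lay nearest to Klrd1 (0.972), Ctsw (0.97) and Zap70 (0.961), and Ccl5 to Gzmk (0.941), Sh2d2a (0.94) and Gzmm (0.936). Tbx21 lay nearest to Gzmm (0.935), Gzmk (0.933) and Slc14a1 (0.925), and Ifng to Gzmm (0.943), Il12rb1 (0.939) and Podnl1 (0.933). Il13 was too low to be ranked, with at most 6.16 CPM in any set.

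**Figure D5:**
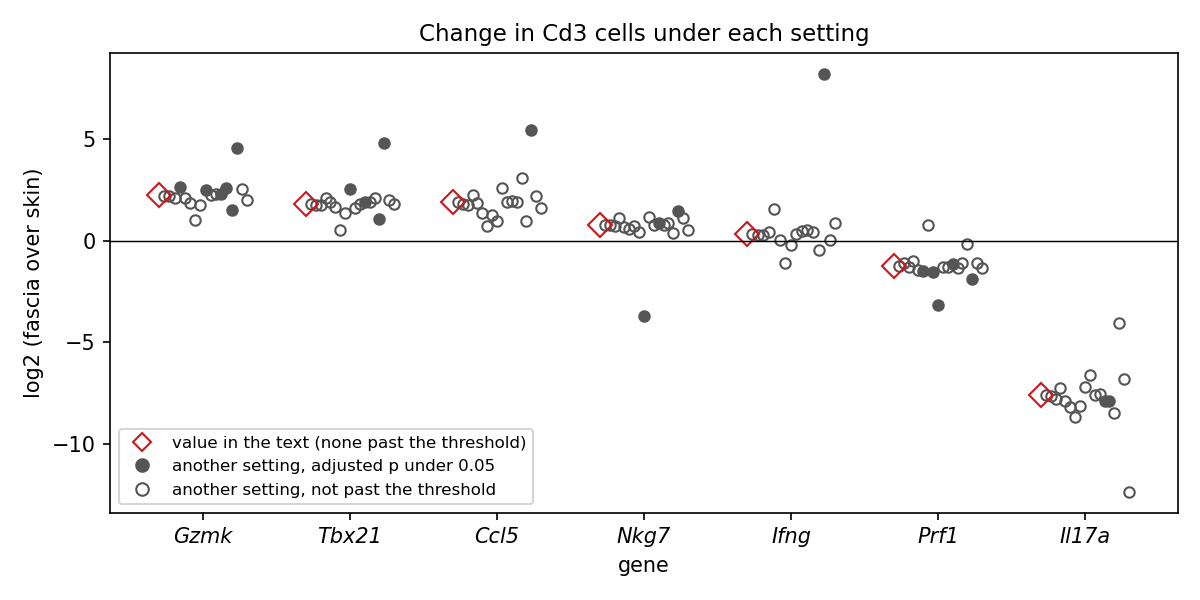
Log2 change of fascia over skin (vertical axis) of each tested effector gene in Cd3 cells, as given in the text (red diamond) and under every other setting (circles, filled where the adjusted p was under 0.05). Gzmk, Tbx21 and Ccl5 stay above 0 and Il17a below 0 in each setting drawn, while Ifng, Prf1 and Nkg7 lie on both sides.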

How the data were processed

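The 4 droplet single-cell libraries were 2 of fascia and 2 of skin, grouped by their titles. The deposited files hold whole-number UMI counts for each gene in each barcode. The submitters' processing notes say that the authors used Cell Ranger 6.0.1 with STAR and the builds mRatBN7.2 and GRCh38.p13, while the file headers name Cell Ranger 7.0.0. Whether intronic reads were counted is not given in the sources used here.

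Cells needed 500 genes or more and no more than 20% of UMIs from mitochondria. Scrublet, run through scanpy 1.11.5, removed doublets in fascia. In both skin libraries it marked less than 0.5%, and the cells with the highest scores, 0.8% for every 1000 cells, were removed in its place. Clusters came from Leiden clustering at resolution 1 and were named from 139 markers, 128 of which have a row. Total UMIs of the deposited barcodes were 83852172 to 95777810 per library. Counts were summed per library and set of cells and tested with edgeR 4.0.16 (TMM, filterByExpr, robust quasi-likelihood test, fascia over skin, Benjamini-Hochberg, threshold 0.05) in R 4.3.3; DESeq2 1.42.0 was an alternative. The test was checked on simulated data. Poisson and binomial intervals are exact at 95%, and they and the floor of 3 counts cover counting error only. Cd4 and Trdc subsets were not analysed here, so Cd3 cells were split by Cd8a and Cd8b. Named genes were the 9 effector genes, per list up to 3 called genes per direction with the largest change, at least 20 CPM in the higher tissue and libraries that do not overlap, and the 3 genes most like each effector gene; Gzmbl2, Gzmm, Il23r, Klrd1 and the receptors in other cells were chosen after their values were seen. The genes and lists were chosen with earlier results of these data known. Promoters are from RefSeq, build GRCr8. Alternatives were RLE size factors, no low-count filter, a replicate block, leaving out 1 library at a time, minimums of 200 genes and at most 10% mitochondrial UMIs, doublets kept, other minimums of Cd3 and Nkg7 UMIs, cells with markers of other types left out, named clusters only and thinning to 1000 UMIs; a limit to clusters 14, 18 and 31 and the split by Cd8 were added after the data were seen. Some genes that the rule selects are left out of the text.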

Additional observations from a re-analysis of the deposited data

How the results depend on the processing

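Each tested effector gene was refitted under the alternatives. In Cd3 cells 97 of 123 refitted log2 changes kept their direction and their side of the threshold, 21 passed it and 5 changed sign; over all kept cells 59 of 77 did and 18 passed. Those that changed sign were Ifng in clusters 14 and 18 only (-1.07), in clusters 14, 18 and 31 only (-0.20, added after seeing the data) and without skin replicate 1 (-0.43, against 8.21 without skin replicate 2, where skin had 0 Ifng UMIs and the size is no bound), Prf1 in clusters 14 and 18 only (0.77), and Nkg7 in cells without Cd8 UMIs (-3.69, added after seeing the data). The 1696 genes called in Cd3 cells became 710 in clusters 14 and 18 only, 688 after thinning to 1000 UMIs per cell and 2881 with no low-count filter; leaving out 1 library gave 706 to 2463. Over all cells, 6736 became 2858 to 4474 when a library was left out. The cause was not tested, except that these fits hold fewer cells, UMIs or libraries, or more genes.

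Whether the replicate numbers pair the libraries is not known. Deviations of same-numbered libraries correlated at -0.061 in Cd3 cells and -0.122 over all cells. This cannot settle the question, because each tissue gives only 1 difference between libraries. With the replicate number as a block, 1881 genes (18.9%) were called in Cd3 cells and 5228 (29.4%) over all cells. This fit leaves fewer degrees of freedom for the spread than the main one. In Cd3 cells Gzmk (2.58) and Il17a (-7.88) passed, 2 of the 7 effector genes. Over all cells 5 of the 7 passed: Ccl5 (4.94), Gzmk (4.61), Il17a (-5.72), Nkg7 (3.24) and Tbx21 (1.79). Where a tissue kept 1 library, it was assumed to vary like the other tissue. No test of Nkg7-high cells was run under any setting, since skin replicate 1 held none. Of 42 fascia means of that set under other settings, 40 moved by less than the spread between libraries, and of 64 shares of Cd3 cells thinned to 500 or 2000 UMIs, 25 left the interval of the share at 1000. Skin Cd3 cells are few and shallow, which limits Ifng and Il13.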
